A study of Homo sapiens with 120 samples.

Results

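The 6 libraries described here are the unedited cells at day 1 of 3 differentiation protocols, chosen by their titles from 120 libraries in all. The Endo, BMP4 and SMADi groups hold 2 libraries each, called a and b. All are WT cells of H1, an established line of human embryonic stem cells. The KO and ΔATG cells (DATG in the titles) of H1 at day 1, with 2 libraries in each protocol, are used only for comparison. The labels do not describe these edits or name the edited gene; the study is about the non-coding RNA gene LNCPRESS1, which is taken here as that gene. Endo cells were seeded as single cells on Matrigel with the ROCK inhibitor Y-27632 and were given the first medium of a definitive endoderm kit (supplements MR and CJ) on day 1. BMP4 cells were seeded on Matrigel in mTeSR for mesoderm induction with BMP4, at a lower density per well. The account of the BMP4 protocol in the labels stops after the seeding step, so the dose of BMP4 and the time it was added are not known here. SMADi cells were seeded as single cells on Geltrex with Y-27632 and kept from day 0 in a neural induction medium with SMAD inhibitors. The labels do not say whether day 1 cells were collected before or after that day's medium change. Medium, coating, seeding density and signal differ together between the protocols, so their parts in any difference cannot be told apart.

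The germ layers separate through a few extracellular signals. Nodal and Wnt together drive pluripotent cells into the primitive streak, from which definitive endoderm and mesoderm arise. BMP acts through SMAD1 and SMAD5 and pushes cells towards posterior and lateral mesoderm or towards amnion. Where both the Nodal and the BMP branch are blocked, the cells keep SOX2 and take the neural path.

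The libraries held 48956775 to 58308200 estimated counts and 26339 to 27983 genes above 0. Mitochondrial transcripts took 3.66 to 8.02% of the counts, with the highest share in BMP4 library b. Libraries of the same protocol differed by a root mean square of 0.38 to 0.48 on the log2 scale, against 1.00 to 1.22 between protocols. A gene was called where edgeR's quasi-likelihood test gave a Benjamini-Hochberg adjusted p under 0.05. The labels do not say that libraries a and b came from separate cultures. The fit took the spread between libraries a and b from 96 libraries, of unedited and edited cells over all days. The p-values therefore measure that pooled spread, which may be technical, and not the spread of these 6 libraries alone. Of 25821 genes tested, 8801 (34.1%) were called between Endo and SMADi, 9274 (35.9%) between BMP4 and SMADi, and 9170 (35.5%) between Endo and BMP4. The 3 comparisons share libraries and are not independent of each other. With only these 6 libraries in the fit they called 7595, 8066 and 8133 genes. By direction, 16.6% of all tested genes were higher and 17.5% lower in Endo than in SMADi. The shares were 18.2% and 17.7% in BMP4 against SMADi, and 17.3% and 18.2% in Endo against BMP4. Counts of list members below are to be set against these shares. Some genes are on several lists, so the counts of different lists are not independent of each other. A gene was said to set a protocol apart where its level was called in the same direction against both other protocols. By that count 1998 genes (7.74%) were higher in Endo than in both others and 2363 (9.15%) lower. For BMP4 there were 2209 (8.56%) higher and 2161 (8.37%) lower, of which the second count was 1412 without BMP4 library b. For SMADi 2035 (7.88%) were higher and 2164 (8.38%) lower. Genes with a smaller fold change of at least 16-fold were most numerous among those lower in SMADi, at 218, followed by 134 higher and 107 lower in Endo. Only 49 were higher in BMP4 by that measure, 26 lower in BMP4 and 25 higher in SMADi. These folds were fitted without a floor on level. Genes with 0 or few counts in a group are among them, and their folds can be larger than the counts can fix. A joint test of the 3 protocols called 13365 genes (51.8%), while 2432 (9.42%) were called in all 3 pairwise comparisons and 11506 (44.6%) in none. Levels are given as CPM, the counts scaled to library size with TMM factors, and differences as log2 fold changes with their SE.

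The primitive streak genes were highest in the Endo cells. All 20 streak genes were higher in Endo than in SMADi and higher in Endo than in BMP4, where 16.6% and 17.3% of all tested genes were higher. The median differences were 7.21 and 4.59 on the log2 scale (7.17 and 3.88 with genes at 0 in a group set to their bound), against 0 and -0.01 over all tested genes. MIXL1, a homeobox gene of the streak on chromosome 1 (226223618 to 226227054, plus strand, GRCh38), had 2140 and 2170 CPM in Endo, 38.8 and 43.8 in BMP4, and 1.03 and 1.23 in SMADi. The 3 protocols formed 3 separate levels with no overlap, and MIXL1 differed by 10.89 ± 0.31 between Endo and SMADi (edgeR adjusted p = 1.49e-34) and by 5.71 ± 0.24 between Endo and BMP4 (edgeR adjusted p = 4.16e-27). In these bulk libraries, fewer cells of a type and less RNA per cell cannot be told apart. EOMES, the T-box factor needed for endoderm, had 721 and 730 CPM in Endo, 73.3 and 72.3 in BMP4, and 0.746 and 0.793 in SMADi. TBXT (brachyury) had 371 and 334 CPM in Endo, 92.0 and 99.5 in BMP4, and 0.141 and 0.278 in SMADi. Endo and BMP4 lay closer together for TBXT, with a difference of 1.88 ± 0.19, than for MIXL1. EVX1, a posterior streak gene, had 273 and 246 CPM in Endo, 10.4 and 13.6 in BMP4, and 0.0605 and 0.119 in SMADi. GSC, the organizer homeobox gene of the anterior streak, had 97.2 and 101 CPM in Endo, 1.42 and 1.44 in BMP4, and 0.101 and 0.198 in SMADi.

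BMP4 cells shared only some of the streak genes. In BMP4 12 of 20 streak genes were higher than in SMADi and 1 was lower, where 18.2% and 17.7% of all tested genes were (median 2.31, or 2.61 at the bounds, against 0.01 over all genes). The called ones included TBXT at 8.82 ± 0.31, SP5 at 7.24 ± 0.25, EVX1 at 7.02 ± 0.48 and EOMES at 6.56 ± 0.22 above SMADi. Another 7 members were not called. FGF17, a streak ligand of the FGF family, had 147 and 114 CPM in Endo, 0.739 and 1.44 in BMP4, and 0.806 and 1.27 in SMADi. APLNR, the receptor of ELABELA and apelin, had 339 and 252 CPM in Endo, 1.69 and 1.93 in BMP4, and 1.87 and 1.47 in SMADi. For both genes BMP4 and SMADi overlapped and were not called apart (0.05 ± 0.33 and 0.11 ± 0.36), while both Endo libraries were higher. LHX1, a factor of the anterior streak and node, was the streak gene lower in BMP4 than in SMADi, with 200 and 193 CPM in Endo, 1.00 and 0.649 in BMP4, and 2.22 and 2.16 in SMADi.

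**Figure D1:**
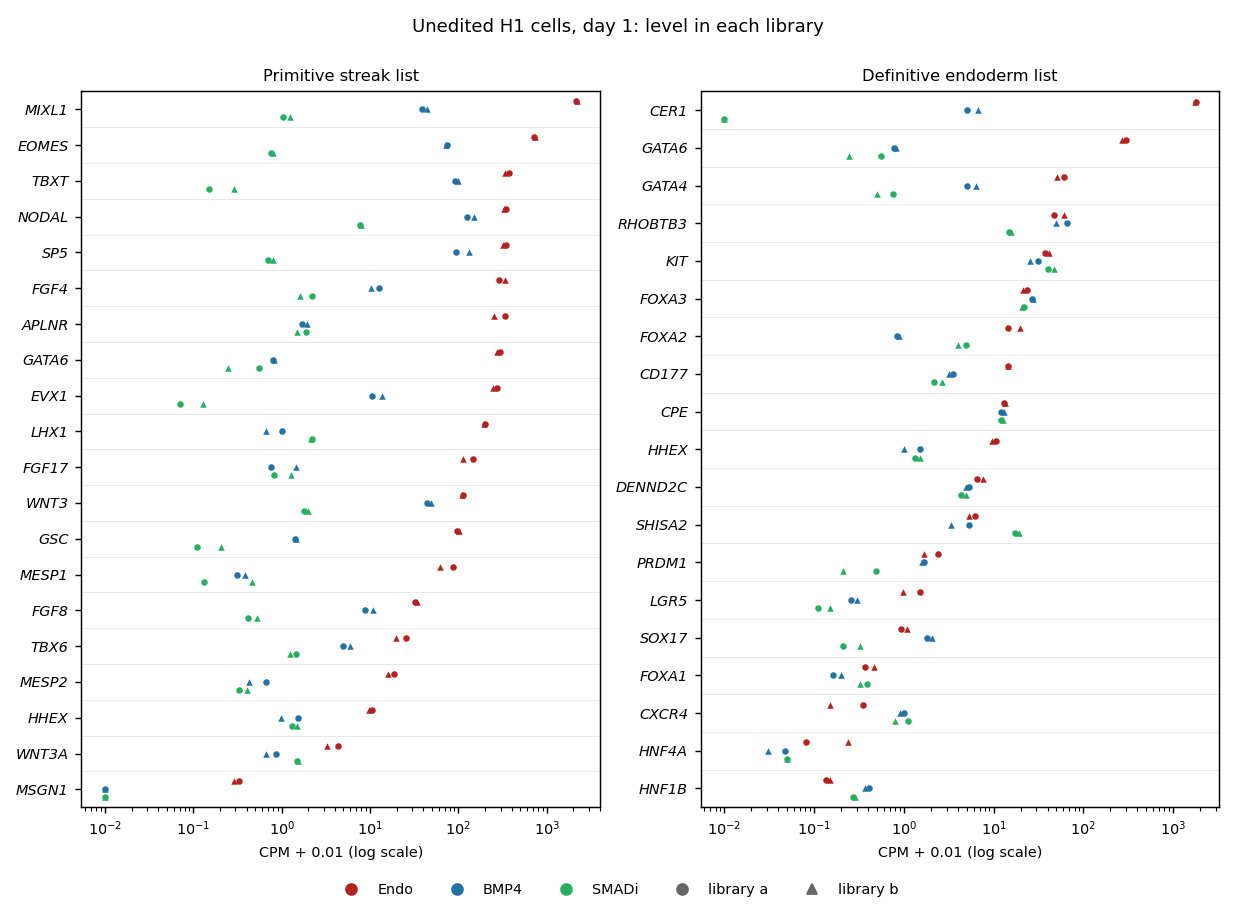
Level of the primitive streak genes (left) and the tested definitive endoderm genes (right) in each day 1 library of unedited cells, as CPM + 0.01 on a log axis, with Endo in red, BMP4 in blue and SMADi in green, circles for library a and triangles for library b. All 20 streak genes have their highest levels in Endo, where MIXL1 reaches 2170 CPM, while SOX17 and CXCR4 in the right panel stay near or below 2.05 CPM in all 6 libraries.

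The Nodal ligand itself followed the streak genes. NODAL had 341 and 325 CPM in Endo, 125 and 151 in BMP4, and 7.62 and 7.87 in SMADi. SMADi was lowest, 5.42 ± 0.20 below Endo and 4.15 ± 0.19 below BMP4. GDF3, a ligand that pairs with NODAL, had 66.2 and 62.0 CPM in Endo, 75.8 and 82.8 in BMP4, and 14.6 and 15.0 in SMADi. The co-receptor TDGF1 (CRIPTO) and the signal carrier SMAD2 were called in none of the comparisons. FOXH1, the DNA-binding partner of SMAD2 and SMAD3, had 438 and 426 CPM in Endo, 89.3 and 84.4 in BMP4, and 154 and 142 in SMADi, so it was highest in Endo and lowest in BMP4 with no overlap. Of 12 Nodal ligands, receptors and carriers, 5 were higher and 1 lower in Endo than in SMADi, 2 higher and 4 lower in BMP4 than in SMADi, and 5 higher and 1 lower in Endo than in BMP4.

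On the list of Nodal targets, GSC, EOMES, MIXL1, FGF17, LHX1 and NODAL are streak genes already counted above. NODAL and TDGF1 are on the list of Nodal ligands and receptors as well. The Nodal targets had 13 of 15 members higher and 0 lower in Endo than in SMADi (median 6.48). In BMP4 11 were higher than in SMADi and 2 lower (median 3.24), and 10 were higher and 2 lower in Endo than in BMP4 (median 1.66). CER1 (cerberus), a secreted antagonist of Nodal, BMP and Wnt on chromosome 9, gave the widest span. It had 1790 and 1760 CPM in Endo, 5.02 and 6.70 in BMP4, and 0 counts in both SMADi libraries. With a floor of 3 counts per SMADi library, CER1 was at least 2.95e+04-fold higher in Endo than in SMADi and at least 97.7-fold higher in BMP4 than in SMADi, and Endo was 8.25 ± 0.27 above BMP4. The antagonists LEFTY1 and LEFTY2 ran the other way between Endo and BMP4. LEFTY2 had 12.9 and 13.6 CPM in Endo, 25.5 and 27.5 in BMP4, and 0.121 and 0.238 in SMADi, and LEFTY1 had 11.2 and 19.8 CPM in Endo, 44.5 and 50 in BMP4, and 0.181 and 0.0595 in SMADi. Both LEFTY genes were therefore lower in Endo than in BMP4 (-1 ± 0.17 and -1.61 ± 0.21) although NODAL and CER1 were higher there. The LEFTY1 differences from SMADi rest on few SMADi counts: they were 6.98 ± 0.40 for Endo and 8.59 ± 0.38 for BMP4, and 7.97 and 9.58 without SMADi library a. PMEPA1, a feedback inhibitor of the same branch, had 141 and 145 CPM in Endo, 67.9 and 81.7 in BMP4, and 16.9 and 15.9 in SMADi.

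The promoters of CER1 and MIXL1 are shown because these genes span the widest range among the Nodal targets. Both sequences are RefSeq's, from 250 bases before to 50 bases after the gene's start on GRCh38.p14, written 5′ to 3′ along the gene, with CER1 at chr9:14722684-14722983 on the minus strand and MIXL1 at chr1:226223414-226223713 on the plus strand. Capitals mark the FOXH1 core, searched on both strands as AATNCACA.
CER1: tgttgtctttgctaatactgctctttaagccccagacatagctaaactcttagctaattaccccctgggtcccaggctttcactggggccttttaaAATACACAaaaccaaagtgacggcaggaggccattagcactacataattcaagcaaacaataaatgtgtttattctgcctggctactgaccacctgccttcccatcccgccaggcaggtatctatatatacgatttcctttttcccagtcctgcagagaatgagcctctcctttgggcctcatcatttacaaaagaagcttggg
MIXL1: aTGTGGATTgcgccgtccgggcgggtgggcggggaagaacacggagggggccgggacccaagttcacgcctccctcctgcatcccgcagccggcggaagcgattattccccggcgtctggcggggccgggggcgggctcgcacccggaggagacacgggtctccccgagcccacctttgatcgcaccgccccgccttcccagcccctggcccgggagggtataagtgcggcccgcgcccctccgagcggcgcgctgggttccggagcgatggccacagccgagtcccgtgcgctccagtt
Each of these promoters held 1 match. The table of promoters covered 8 of the 15 Nodal targets with 13 promoters, of which 3 (23.1%) held the motif, those of CER1, MIXL1 and PMEPA1, against 3.31% of all 35116 promoters of the same length. A match is a description of the letters in this window and does not show binding.

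Most Wnt targets and antagonists were higher in Endo. Of 21 such genes 14 were higher and 4 lower in Endo than in SMADi (16.6% and 17.5% of all tested genes), 9 higher and 6 lower in BMP4 than in SMADi (18.2% and 17.7% of all), and 15 higher and 4 lower in Endo than in BMP4 (17.3% and 18.2% of all). The medians were 2.57, 0.28 and 1.43 (2.35, 0.83 and 1.43 at the bounds). SP5, a direct target of beta-catenin, had 346 and 316 CPM in Endo, 93.7 and 130 in BMP4, and 0.685 and 0.793 in SMADi. It was high in Endo, intermediate in BMP4 and near the detection limit in SMADi. AXIN2, the feedback target used as a general Wnt readout, had 97.4 and 92.0 CPM in Endo, 37.0 and 38.7 in BMP4, and 47.5 and 46.4 in SMADi. AXIN2 was called higher in Endo than in both others, by 1.01 ± 0.10 and 1.32 ± 0.10, a much smaller span than that of SP5. The Wnt antagonist DKK1 had 311 and 213 CPM in Endo, 1.12 and 1.78 in BMP4, and 0.222 and 0.139 in SMADi. Its relative DKK4 had 270 and 241 CPM in Endo, with 28852 counts, against 1 count in BMP4 and 3 counts in SMADi over both libraries. The ratio of DKK4 between Endo and SMADi was 8.52e+03, with an exact 95% counting interval of 2.92e+03 to 4.13e+04 that covers counting error only. APCDD1, a membrane inhibitor of Wnt, had 108 and 101 CPM in Endo, 4.55 and 8.12 in BMP4, and 5.10 and 5.33 in SMADi. SFRP1, a secreted Wnt inhibitor, went the opposite way, with 19.7 and 22 CPM in Endo, 84.9 and 61.9 in BMP4, and 451 and 432 in SMADi.

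Among 24 Wnt ligands and receptors 10 were higher and 4 lower in Endo than in SMADi, 8 higher and 5 lower in BMP4 than in SMADi, and 7 higher and 8 lower in Endo than in BMP4. WNT3, the streak ligand, had 112 and 111 CPM in Endo, 44.4 and 48.4 in BMP4, and 1.79 and 2.00 in SMADi. WNT8A was the exception among the ligands of the streak, with 4.44 and 3.81 CPM in Endo, 10.7 and 8.69 in BMP4, and 0.0403 and 0.0793 in SMADi, and it differed by -1.23 ± 0.30 between Endo and BMP4. The agonist RSPO3 had 9.36 and 7.81 CPM in Endo, against 3 counts over both libraries in BMP4 and 3 in SMADi, a ratio to SMADi of 286 (exact 95% counting interval 97.5 to 1.39e+03). The receptor FZD7 had 344 and 343 CPM in Endo, 70.4 and 57.8 in BMP4, and 336 and 323 in SMADi, so it set BMP4 apart from both others. ROR2, a receptor for WNT5A, had 212 and 196 CPM in Endo, 24.3 and 22.1 in BMP4, and 20.5 and 19.8 in SMADi. WNT5A was also highest in Endo, at 80.6 and 63.5 CPM, with 6.95 and 7.47 in BMP4 and 25.1 and 19.9 in SMADi.

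The SP5 promoter is shown for its repeated Wnt motif. It lies at chr2:170715087-170715386 on the plus strand (RefSeq, GRCh38.p14), and capitals mark the TCF/LEF core, searched on both strands as CTTTGAT or CTTTGAA.
SP5: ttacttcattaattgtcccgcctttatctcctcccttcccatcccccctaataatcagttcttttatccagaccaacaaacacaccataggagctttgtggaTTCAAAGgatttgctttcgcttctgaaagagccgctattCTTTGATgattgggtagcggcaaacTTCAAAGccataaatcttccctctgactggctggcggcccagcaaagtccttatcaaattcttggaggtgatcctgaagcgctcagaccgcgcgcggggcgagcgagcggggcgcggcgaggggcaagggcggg
This window held 3 matches, and 0.0256% of all promoters held 3 or more. It was chosen for its repeated motif, so the small share follows from the choice. No other promoter of the Wnt list held 2 or more. Among 15 promoters of the Wnt list, 5 (33.3%) held at least 1 match, against 6.86% of all promoters.

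**Figure D2:**
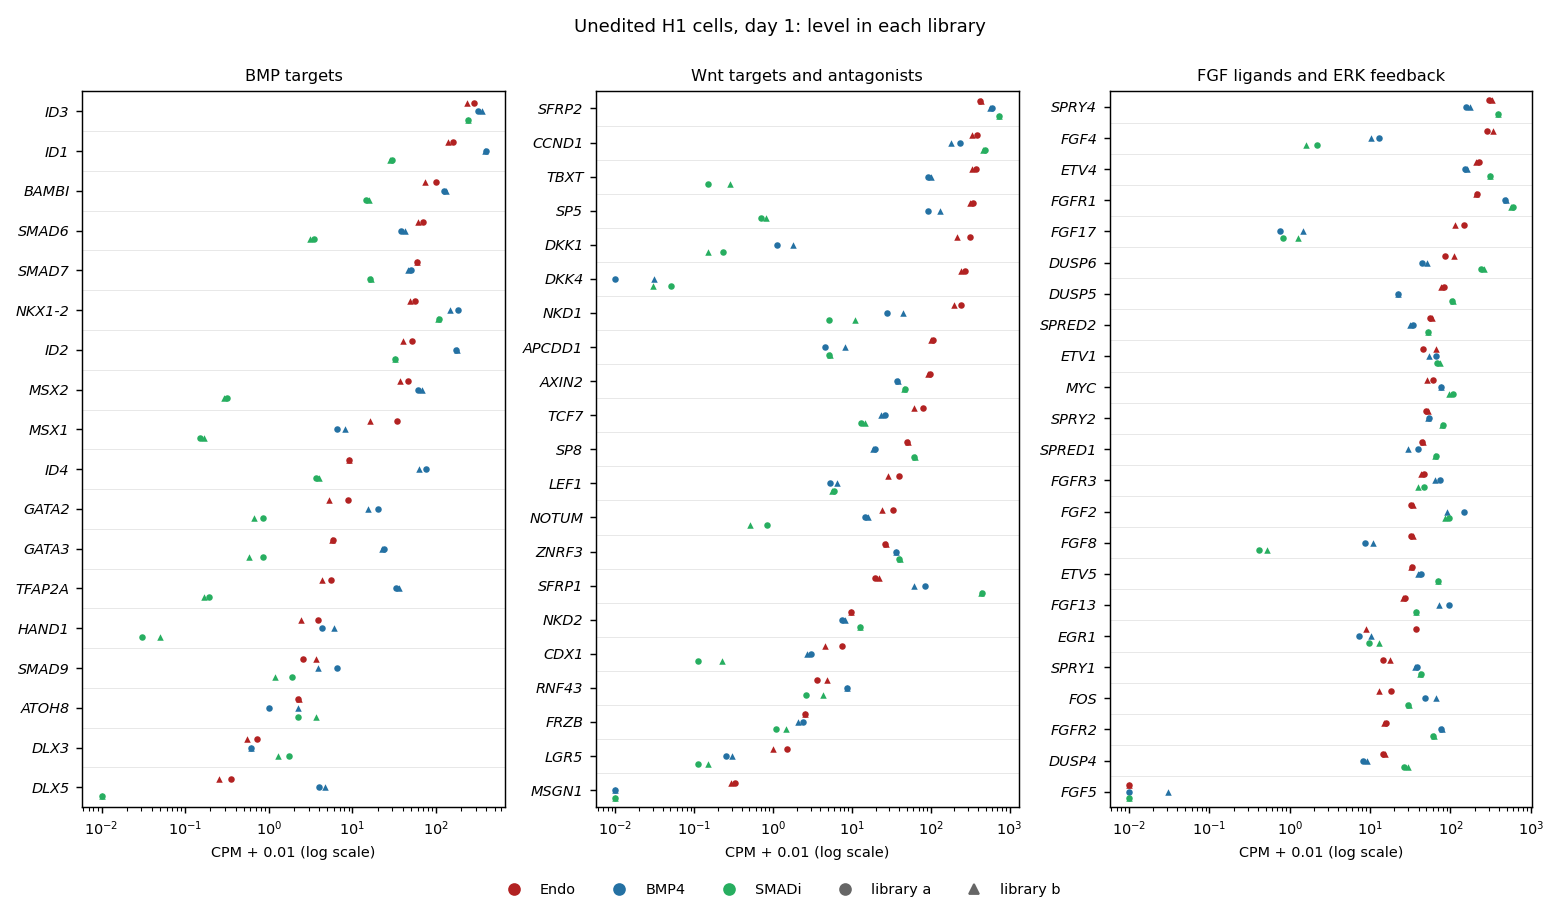
Level of BMP targets (left), Wnt targets and antagonists (middle), and FGF ligands with ERK feedback genes (right) in each day 1 library of unedited cells, as CPM + 0.01 on a log axis, with Endo in red, BMP4 in blue and SMADi in green, circles for library a and triangles for library b. ID1 is highest in BMP4 at 390 and 388 CPM, DKK4 stands far to the right in Endo at 270 and 241 CPM, and DUSP6 is highest in SMADi at 241 and 262 CPM.

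Other signals and factors were high in Endo. BMP2 had 133 and 107 CPM in Endo, 2.69 and 2.24 in BMP4, and 2.96 and 3.37 in SMADi, so both Endo libraries lay above the other 4. FGF4 had 286 and 336 CPM in Endo, 12.7 and 10.3 in BMP4, and 2.18 and 1.59 in SMADi. CYP26A1, which breaks down retinoic acid, had 107 and 81.3 CPM in Endo, 2.18 and 2.81 in BMP4, and 2.82 and 2.82 in SMADi. DHRS3, which reduces retinal to retinol, was the reverse, with 0.323 and 0.262 CPM in Endo, 15.0 and 16.6 in BMP4, and 12.8 and 11.3 in SMADi. Over the 13 retinoic acid genes 5 were higher and 3 lower in Endo than in SMADi, 3 higher and 5 lower in BMP4 than in SMADi, and 7 higher and 3 lower in Endo than in BMP4.

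Genes of the epithelial to mesenchymal transition differed between protocols in both directions. SNAI1, a repressor known to start this transition, had 122 and 105 CPM in Endo, 8.09 and 8.69 in BMP4, and 9.70 and 11.1 in SMADi. CDH2 (N-cadherin) had 339 and 355 CPM in Endo, 53.2 and 39.1 in BMP4, and 34.7 and 34.6 in SMADi. CDH1 (E-cadherin) had 300 and 334 CPM in Endo, 542 and 459 in BMP4, and 399 and 392 in SMADi, and was called only between Endo and BMP4 (-0.66 ± 0.17). EPCAM, an epithelial adhesion molecule, was lower in Endo, with 105 and 109 CPM in Endo, 255 and 216 in BMP4, and 321 and 334 in SMADi. Of 15 genes of this transition 7 were higher and 5 lower in Endo than in SMADi, 5 higher and 5 lower in BMP4 than in SMADi, and 5 higher and 7 lower in Endo than in BMP4.

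Defining markers of definitive endoderm were near 0 in the Endo cells at day 1, against the name of the protocol. SOX17, the defining endoderm factor, had 0.916 and 1.07 CPM in Endo, 1.82 and 2.05 in BMP4, and 0.202 and 0.317 in SMADi. CXCR4, the surface marker of definitive endoderm, had 0.341 and 0.140 CPM in Endo, 0.985 and 0.900 in BMP4, and 1.11 and 0.793 in SMADi, so it was lowest in Endo. FOXA1 stayed at or below 0.454 CPM in all 6 libraries. GATA factors of the same lineage were high in Endo. GATA6 had 295 and 272 CPM in Endo, 0.777 and 0.816 in BMP4, and 0.544 and 0.238 in SMADi. GATA6 was higher in Endo than in BMP4 by 8.47 ± 0.25 and than in SMADi by 9.5 ± 0.27, or 10.21 without SMADi library a. Its antisense neighbour GATA6-AS1, counted in a way not stated to use strand, had 17.5 and 17.3 CPM in Endo, 0.0189 and 0.0419 in BMP4, and 0.0403 and 0 in SMADi. GATA4 had 61.4 and 51.1 CPM in Endo, 5.06 and 6.41 in BMP4, and 0.746 and 0.496 in SMADi. FOXA2, a pioneer factor of endoderm and node, had 14.5 and 19.8 CPM in Endo, 0.833 and 0.879 in BMP4, and 4.98 and 3.99 in SMADi, so the SMADi libraries lay above the BMP4 ones. Over 19 tested endoderm genes of 20, 11 were higher and 2 lower in Endo than in SMADi (median 1.85), 8 higher and 3 lower in BMP4 than in SMADi (median 0.34, or 0.41 at the bounds), and 8 higher and 4 lower in Endo than in BMP4 (median 0.48).

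Mesoderm genes differed in both directions between the Endo and BMP4 cells. Of 25 tested, 19 were higher and 0 lower in Endo than in SMADi (16.6% and 17.5% of all tested genes), 13 higher and 3 lower in BMP4 than in SMADi (18.2% and 17.7% of all), and 13 higher and 7 lower in Endo than in BMP4 (17.3% and 18.2% of all). MESP1, the first factor of cardiac mesoderm, is on the streak list and not among these 25. It had 87.7 and 61.4 CPM in Endo, 0.303 and 0.377 in BMP4, and 0.121 and 0.456 in SMADi. PDGFRA, a receptor of paraxial and cardiac mesoderm, had 44.1 and 37.2 CPM in Endo, 2.52 and 3.45 in BMP4, and 2.08 and 1.37 in SMADi. FOXC1, a factor of paraxial mesoderm, had 28.9 and 25.1 CPM in Endo, 1.17 and 0.963 in BMP4, and 2.42 and 2.12 in SMADi. All of these were higher in Endo than in both others, with no overlap. FOXF1 and HAND2 of the mesoderm list also had most counts in Endo, at 749 and 183 over both libraries. They had 19 and 17 counts in BMP4, and 2 and 1 in SMADi. The members lower in Endo than in BMP4, such as KDR and ISL1, were fewer. KDR, the VEGF receptor of lateral mesoderm, had 194 and 189 CPM in Endo, 557 and 502 in BMP4, and 86.4 and 92.2 in SMADi. ISL1, a factor of the second heart field and of amnion, had 1.36 and 0.629 CPM in Endo, 3.90 and 4.06 in BMP4, and 0.0806 and 0.0595 in SMADi. HAND1, a lateral mesoderm and amnion factor, had 3.86 and 2.39 CPM in Endo and 4.26 and 6.01 in BMP4, against 3 counts over both SMADi libraries, a ratio to SMADi of 104 for Endo (exact 95% counting interval 35.3 to 506) and 170 for BMP4 (57.8 to 826). The HAND1 difference between Endo and BMP4, -0.71 with an edgeR adjusted p of 0.0255, was not called with the 6 libraries alone (adjusted p = 0.0988, or 0.119 with the replicate block) or with limma voom (adjusted p = 0.11). It was -0.45 without BMP4 library b and -0.41 without Endo library b, neither of them called (edgeR adjusted p = 0.313 and 0.354).

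The transcription factor genes SOX2, SOX3 and SOX21 were lower in Endo than in both others. SOX2, shared by pluripotent and neural cells, had 5.35 and 5.28 CPM in Endo, 279 and 226 in BMP4, and 259 and 252 in SMADi. SOX2 differed by -5.58 ± 0.14 between Endo and SMADi and by -5.57 ± 0.14 between Endo and BMP4 (edgeR adjusted p = 1.11e-36 and 1.81e-36). BMP4 and SMADi differed in SOX2 by -0.01 ± 0.11, which was not called. SOX3, a close relative of SOX2, had 0.341 and 0.122 CPM in Endo, 17.8 and 18.2 in BMP4, and 16.3 and 16.7 in SMADi. The SOX3 difference was -6.15 for Endo against SMADi and -6.27 for Endo against BMP4, and without Endo library a these were -7.05 and -7.17. SOX21, another member of the family, had 0.0180 and 0.0699 CPM in Endo, 1.25 and 0.775 in BMP4, and 4.13 and 2.70 in SMADi. FAM110C was among the genes named by rank as lower in Endo, with 0.144 and 0.192 CPM in Endo, 9.79 and 9.55 in BMP4, and 14.5 and 13.1 in SMADi. JAKMIP2-AS1, an antisense transcript counted in a way not stated to use strand, had 0.0359 and 0 CPM in Endo, 4.66 and 3.91 in BMP4, and 9.27 and 9.81 in SMADi. AMIGO3 had 0 counts in Endo, 10.2 and 9.36 CPM in BMP4, and 14.4 and 13.5 in SMADi; it lies within another gene, GMPPB, on the same strand, so its reads are uncertain. The AMIGO3 calls were lost without Endo library a (edgeR adjusted p = 0.0592 against SMADi and 0.0775 against BMP4) and without Endo library b (0.0642 and 0.0781).

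BMP target genes were low in SMADi, and most were highest in BMP4. Lower in SMADi than in both others were 14 of 18 (8.38% of all tested genes), and 10 were higher in BMP4 than in both others (8.56% of all). Of the 18 BMP targets 15 were higher and 1 lower in BMP4 than in SMADi (median 3.68, or 3.69 at the bounds), and 14 were higher and 2 lower in Endo than in SMADi (median 2.44, or 2.32). Between Endo and BMP4, 2 were higher in Endo and 11 lower, where 18.2% of all tested genes were lower (median -0.72). ID1, the classic SMAD1 and SMAD5 target, had 159 and 139 CPM in Endo, 390 and 388 in BMP4, and 29.6 and 28.2 in SMADi. ID4 had 8.98 and 9.17 CPM in Endo, 75.3 and 62.3 in BMP4, and 3.67 and 3.93 in SMADi. ID2 had 52.1 and 40.2 CPM in Endo, 172 and 177 in BMP4, and 32.1 and 32.6 in SMADi. These ID genes had their highest level in both BMP4 libraries, while ID3 differed little, with 282 and 237 CPM in Endo, 318 and 350 in BMP4, and 240 and 238 in SMADi. The inhibitory SMAD6 had 68.8 and 60 CPM in Endo, 38 and 42.1 in BMP4, and 3.45 and 3.07 in SMADi, and was one of the 2 targets higher in Endo than in BMP4. The other was the homeobox gene MSX1, with 33.6 and 16.2 CPM in Endo, 6.57 and 8.23 in BMP4, and 0.141 and 0.159 in SMADi. MSX2 had 46.1 and 36.9 CPM in Endo, 59.9 and 68.6 in BMP4, and 0.302 and 0.278 in SMADi, so both MSX genes stayed at or below 0.302 CPM in SMADi.

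The BMP4 gene and the genes of its antagonists NOG and FST were highest in the BMP4 libraries. The BMP4 gene (chromosome 14, 53949736 to 53958761, minus strand) had 6.18 and 4.65 CPM in Endo, 98.9 and 109 in BMP4, and 3.35 and 2.70 in SMADi, a difference of 5.10 ± 0.18 between BMP4 and SMADi (edgeR adjusted p = 7.5e-30). NOG (noggin) had 0.772 and 0.909 CPM in Endo, 5.15 and 4.92 in BMP4, and 0.746 and 0.615 in SMADi. FST (follistatin) had 35.5 and 22.5 CPM in Endo, 81.5 and 86.0 in BMP4, and 6.37 and 5.53 in SMADi. CHRD (chordin) did not share this pattern, with 1.54 and 1.5 CPM in Endo, 2.58 and 1.61 in BMP4, and 9.80 and 10.3 in SMADi. Over 20 ligands, receptors and antagonists 11 were higher and 2 lower in Endo than in SMADi, 11 higher and 1 lower in BMP4 than in SMADi, and 5 higher and 7 lower in Endo than in BMP4. The list of BMP targets was searched for the SMAD box GGCGCC, a palindrome, which 6 of 25 promoters (24.0%) held, against 19.2% of all promoters.

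Several factors known from amnion and trophoblast were highest in BMP4 at this day. Of those named here, TFAP2A, GATA3 and DLX5 are also on the list of BMP targets. Of 20 tested genes 10 were higher in BMP4 than in both others and 4 higher in SMADi (8.56% and 7.88% of all tested genes). TFAP2A, an AP-2 factor of amnion and surface ectoderm, had 5.60 and 4.28 CPM in Endo, 32.8 and 35.5 in BMP4, and 0.181 and 0.159 in SMADi. GATA3 had 5.84 and 5.70 CPM in Endo, 23.8 and 22.8 in BMP4, and 0.847 and 0.575 in SMADi. CDX2 had 3.21 and 2.11 CPM in Endo, 11.9 and 16.4 in BMP4, and 0.161 and 0.159 in SMADi. DLX5 had 0.341 and 0.245 CPM in Endo, 3.98 and 4.63 in BMP4 and 0 counts in SMADi, so it was at least 4.89-fold higher in Endo and at least 71.7-fold higher in BMP4 than in SMADi. The 20 tested genes of this list's 22 had 7 higher and 9 lower in Endo than in SMADi, 11 higher and 4 lower in BMP4 than in SMADi, and 0 higher and 16 lower in Endo than in BMP4 (medians -0.20, 1.06 and -1.80, or -0.41, 0.89 and -1.56 at the bounds). The list is not a single pattern, since KRT7 and KRT18, keratins of simple epithelia, were highest in SMADi, with KRT7 at 0.467 and 0.664 CPM in Endo, 6.57 and 6.99 in BMP4, and 14.2 and 14.6 in SMADi. VTCN1 stayed at or below 0.323 CPM and TP63 at or below 0.287 CPM in all 6 libraries. Summed over the list the levels were 1380 and 1230 CPM in Endo, 1980 and 2190 in BMP4, and 2160 and 2200 in SMADi.

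The genes named by rank as higher in BMP4 than in both others were POSTN, PCAT14, LRP2, HPGD, the BMP4 gene described above, FAM20A, AMER2 and SEMA3C. POSTN (periostin), a matrix protein, had 0.611 and 0.734 CPM in Endo, 44.7 and 32.3 in BMP4, and 1.15 and 0.971 in SMADi. PCAT14, a long non-coding RNA, had 43.5 and 33.6 CPM in Endo, 914 and 998 in BMP4, and 4.52 and 5.08 in SMADi. HPGD, which breaks down prostaglandins, had 9.77 and 8.28 CPM in Endo, 198 and 179 in BMP4, and 0.685 and 0.714 in SMADi. FAM20A, a secretory pathway pseudokinase of biomineralization, had 11.6 and 13.6 CPM in Endo, 220 and 223 in BMP4, and 2.28 and 1.78 in SMADi. PCAT14, HPGD and FAM20A had the same order of 3 levels, with Endo called above SMADi by 3.01 ± 0.22, 3.68 ± 0.34 and 2.63 ± 0.18. LRP2 (megalin), an endocytic receptor, had 1.02 and 0.524 CPM in Endo, 22 and 17.2 in BMP4, and 0.948 and 0.634 in SMADi. AMER2 had 0.144 and 0.0349 CPM in Endo, 19.5 and 15.7 in BMP4, and 1.07 and 1.09 in SMADi. SEMA3C, a semaphorin, had 1.53 and 0.629 CPM in Endo, 16.4 and 18.1 in BMP4, and 0.685 and 0.793 in SMADi, and its difference between Endo and BMP4 was -4.00 ± 0.43, or -4.77 without Endo library a. FN1 (fibronectin) had 206 and 203 CPM in Endo, 1780 and 2080 in BMP4, and 221 and 237 in SMADi.

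Several genes of the contractile cytoskeleton were also highest in BMP4. Of 17 YAP targets and contractile genes 8 were higher and 4 lower in BMP4 than in SMADi (median 0.25), 2 higher and 10 lower in Endo than in SMADi (median -0.35), and 2 higher and 13 lower in Endo than in BMP4 (median -0.84). CCN1, a target of YAP, had 14.9 and 9.63 CPM in Endo, 108 and 96 in BMP4, and 33.0 and 34.6 in SMADi. TAGLN (transgelin) had 52.2 and 36.3 CPM in Endo, 120 and 137 in BMP4, and 40.9 and 41.1 in SMADi. MYL9, a myosin light chain, had 39.3 and 33.9 CPM in Endo, 126 and 124 in BMP4, and 49.4 and 46.6 in SMADi. Endo libraries were lowest for CCN1 and MYL9, with no overlap.

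Of the 2161 genes lower in BMP4 than in both others, 359 were so by at least 2-fold in both comparisons, and LMX1B, PAX5, ZNF528 and MKKS were named by rank. LMX1B, a LIM homeobox gene, had 14.7 and 15.0 CPM in Endo, 0.814 and 0.754 in BMP4, and 16.7 and 15.0 in SMADi. PAX5 had 16.8 and 15.6 CPM in Endo, 1.33 and 1.05 in BMP4, and 17.0 and 16.9 in SMADi. ZNF528 had 9.91 and 9.28 CPM in Endo, 0.928 and 0.482 in BMP4, and 7.82 and 10.8 in SMADi. For these genes Endo and SMADi were not called apart (-0.10 ± 0.16, -0.06 ± 0.26 and 0.05 ± 0.38). MKKS is a symbol carried by several identifiers, and the identifier named by rank had 2.48 and 2.25 CPM in Endo, 0 counts in BMP4, and 6.15 and 4.30 CPM in SMADi, which is uncertain because these identifiers could share reads. GDF1, a partner ligand of NODAL, had 4.24 and 3.79 CPM in Endo, 0 counts in BMP4, and 4.64 and 3.55 CPM in SMADi. Taken at face value, it was at least 67.1-fold higher in Endo and at least 68.4-fold higher in SMADi than in BMP4. The sources do not say how reads were assigned to genes, so the 0 counts of GDF1 are uncertain too.

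The genes named by rank as higher in SMADi than in both others included FOXJ1, HES3, GBX2 and LHX5. FOXJ1, a factor of motile cilia on chromosome 17, had 0.180 and 0.210 CPM in Endo, 1.23 and 1.38 in BMP4, and 54.0 and 48.3 in SMADi. HES3, a repressor of the neural plate, had 0.233 and 0.227 CPM in Endo, 1.86 and 2.41 in BMP4, and 42.0 and 42.6 in SMADi. GBX2, a factor of the anterior hindbrain and of formative pluripotent cells, had 4.87 and 3.11 CPM in Endo, 2.31 and 2.11 in BMP4, and 86.6 and 88.8 in SMADi. LHX5, a forebrain factor, had 0.557 and 0.594 CPM in Endo, 0.322 and 0.293 in BMP4, and 12 and 10.9 in SMADi. In each of these genes both SMADi libraries lay above the other 4, with log2 differences of -8.02 to -4.31 for Endo and BMP4 against SMADi. POU3F1 (OCT6), an early neural factor, had 1.81 and 2.45 CPM in Endo, 7.97 and 7.66 in BMP4, and 39.7 and 38.5 in SMADi. VGF, a secreted neuropeptide precursor, had 6.27 and 4.73 CPM in Endo, 9.83 and 8.06 in BMP4, and 137 and 128 in SMADi. NGFR, the low-affinity nerve growth factor receptor, had 9.30 and 11.2 CPM in Endo, 17.8 and 16.4 in BMP4, and 77.7 and 76.5 in SMADi. GALNT9, an enzyme of O-glycosylation, had 0.233 and 0.140 CPM in Endo, 0.701 and 0.167 in BMP4, and 12.4 and 10.5 in SMADi. ANO1, a chloride channel, had 0.449 and 0.210 CPM in Endo, 0.777 and 0.879 in BMP4, and 14.3 and 11.9 in SMADi.

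The defining neural genes were near 0 in all protocols. PAX6 had 0.0898 and 0 CPM in Endo, 0.189 and 0.314 in BMP4, and 0.101 and 0 in SMADi. SOX1 had 0 counts in Endo, 0.0758 and 0.0837 CPM in BMP4, and 0.222 and 0.0595 in SMADi. Neither gene passed 0.314 CPM in any library, so these markers did not mark the SMADi cells at day 1. Over 30 neuroectoderm genes 6 were higher and 11 lower in Endo than in SMADi (median -0.50, or -0.51 at the bounds), 9 higher and 9 lower in BMP4 than in SMADi (median 0.17, or 0.12), and 8 higher and 12 lower in Endo than in BMP4 (median -0.38). OTX2, a factor of the anterior streak as well as of the forebrain, was highest in Endo, with 94.1 and 88.2 CPM in Endo, 18.0 and 15.6 in BMP4, and 9.37 and 7.77 in SMADi. ZIC2 was likewise highest in Endo, with 403 and 427 CPM in Endo, 217 and 218 in BMP4, and 155 and 166 in SMADi.

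The lowest SMADi levels were those of the streak genes described above. TBXT, CER1, the long non-coding RNA LNCDAT and the pseudogene KRT16P3 were named by rank. LNCDAT had 90.4 and 86.1 CPM in Endo, 19.7 and 26.9 in BMP4, and 0.121 and 0.0793 in SMADi. RNA5-8SN1, a ribosomal RNA gene with many copies whose reads are uncertain in polyA libraries, had 5.85 and 8.46 CPM in Endo and 0 counts in BMP4 and in SMADi. Its calls were lost without either Endo library, with edgeR adjusted p of 0.0616 and 0.0863 against SMADi and 0.0614 and 0.0803 against BMP4, and were lost as well without either library of the group it was compared with (0.178 for each SMADi library, 0.167 and 0.168 for the BMP4 libraries). KRT16P3, whose reads may be shared with its parent gene, had 7 and 4.75 CPM in Endo, 2.90 and 4.31 in BMP4, and 0 counts in SMADi.

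Several ERK feedback genes were highest in SMADi. Of 23 FGF ligands and ERK feedback genes 3 were higher and 11 lower in Endo than in SMADi (median -0.52, or -0.53 at the bounds), 6 higher and 11 lower in BMP4 than in SMADi (median -0.28, or -0.33), and 10 higher and 8 lower in Endo than in BMP4 (median -0.07, or 0.15 at the bounds). DUSP6, the ERK phosphatase, had 85.8 and 112 CPM in Endo, 44.1 and 51.0 in BMP4, and 241 and 262 in SMADi. SPRY4 had 303 and 327 CPM in Endo, 154 and 175 in BMP4, and 395 and 385 in SMADi. ETV4, a transcription factor downstream of FGF, had 227 and 210 CPM in Endo, 151 and 159 in BMP4, and 311 and 309 in SMADi. DUSP6, SPRY4 and ETV4 were lowest in both BMP4 libraries with no overlap of the groups, and the higher level of SPRY4 in SMADi than in Endo was not called. The receptor FGFR2 had 15.7 and 14.7 CPM in Endo, 76.4 and 79.3 in BMP4, and 60.5 and 61.9 in SMADi, so the Endo cells were low in this receptor while high in FGF4, FGF8 and FGF17. Of 17 Notch genes 4 were higher and 8 lower in Endo than in SMADi, 6 higher and 9 lower in BMP4 than in SMADi, and 4 higher and 7 lower in Endo than in BMP4, where 34.1%, 35.9% and 35.5% of all tested genes were called in either direction. The ligand DLL3 was highest in Endo, with 39.0 and 26.3 CPM in Endo, 2.86 and 3.20 in BMP4, and 5.38 and 7.43 in SMADi.

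**Figure D3:**
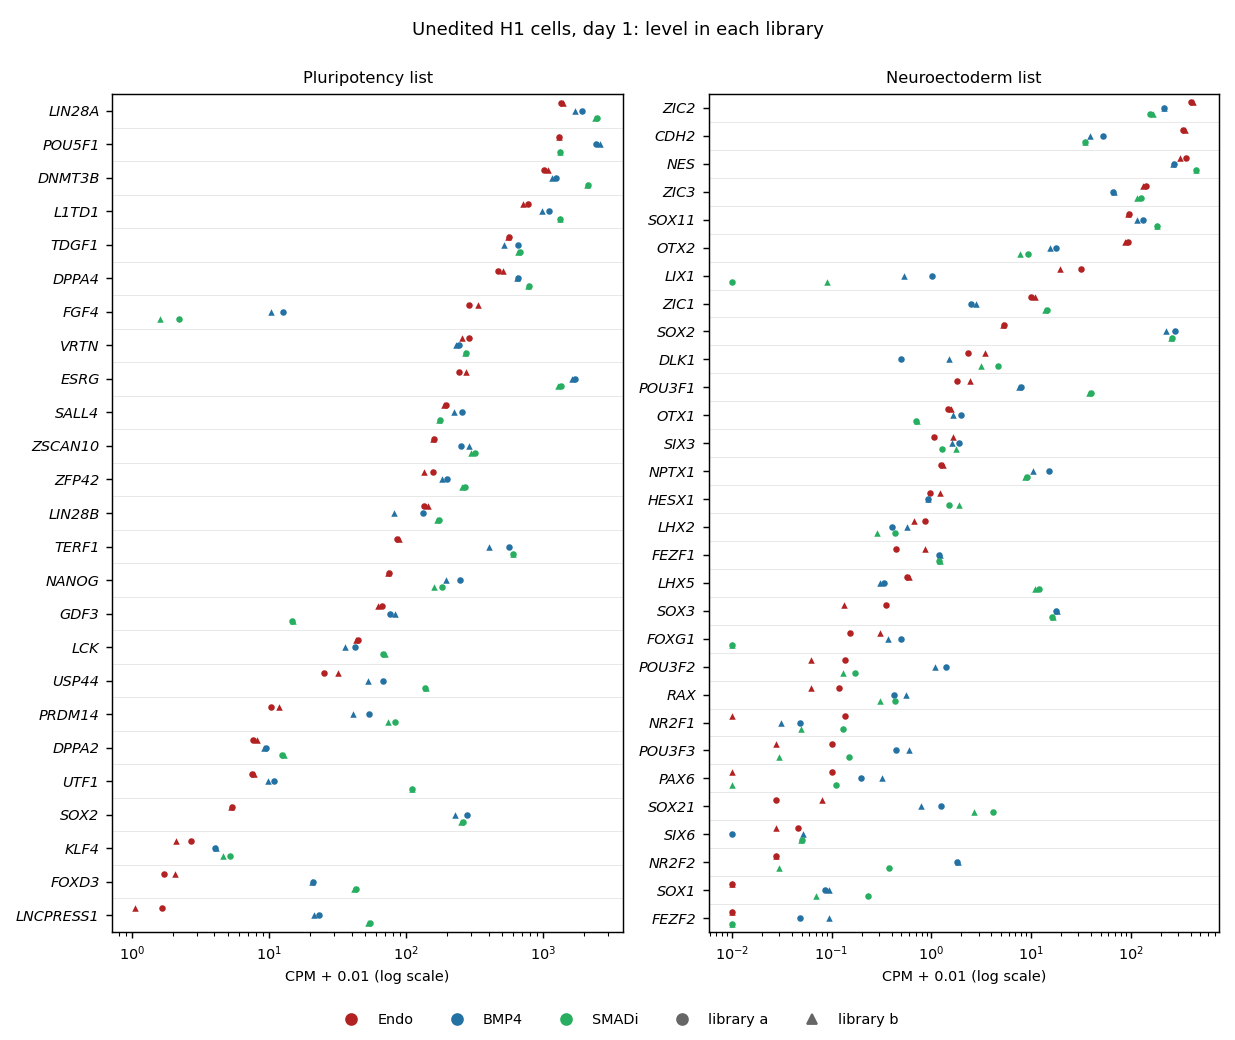
Level of pluripotency genes (left) and neuroectoderm genes (right) in each day 1 library of unedited cells, as CPM + 0.01 on a log axis, with Endo in red, BMP4 in blue and SMADi in green, circles for library a and triangles for library b. SOX2 and LNCPRESS1 are lowest in Endo at 5.28 to 5.35 and 1.05 to 1.65 CPM, POU5F1 is highest in BMP4, and PAX6 and SOX1 stay at or below 0.314 CPM in all libraries.

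Pluripotency genes were lowest in Endo. Of 25 members 18 were lower and 2 higher in Endo than in SMADi (median -0.85), where 17.5% of all tested genes were lower. In BMP4 14 were lower than in SMADi and 5 higher (median -0.33), and between Endo and BMP4 18 were lower and 2 higher in Endo (median -0.44). POU5F1 (OCT4) had 1300 and 1310 CPM in Endo, 2420 and 2590 in BMP4, and 1320 and 1320 in SMADi. Endo and SMADi did not differ beyond their spread (-0.01 ± 0.08), and BMP4 was higher than SMADi by 0.93 ± 0.08 (edgeR adjusted p = 1.72e-13). NANOG had 75.0 and 74.0 CPM in Endo, 249 and 194 in BMP4, and 182 and 161 in SMADi. PRDM14 had 10.4 and 11.9 CPM in Endo, 53.9 and 41.3 in BMP4, and 83.4 and 74.0 in SMADi. FOXD3, a stem cell and neural crest factor, was also low in Endo, with 1.71 and 2.04 CPM in Endo, 21.1 and 20.7 in BMP4, and 43.1 and 41.5 in SMADi. TERF1, a telomere protein abundant in stem cells, had 86.3 and 89.5 CPM in Endo, 563 and 405 in BMP4, and 608 and 607 in SMADi. The transcript ESRG had 244 and 275 CPM in Endo, 1710 and 1630 in BMP4, and 1360 and 1280 in SMADi. UTF1 differed in another way, with 7.56 and 7.70 CPM in Endo, 10.9 and 9.76 in BMP4, and 110 and 111 in SMADi. The members called higher in Endo than in SMADi were the ligands FGF4 and GDF3.

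The unedited LNCPRESS1 gene (chromosome 7, 101299578 to 101301346, plus strand) separated all 3 protocols at day 1. It had 1.65 and 1.05 CPM in Endo, 23.3 and 21.4 in BMP4, and 54.4 and 53 in SMADi. The differences were -5.31 ± 0.35 between Endo and SMADi, -1.27 ± 0.28 between BMP4 and SMADi, and -4.05 ± 0.33 between Endo and BMP4 (edgeR adjusted p = 1.08e-18, 0.000277 and 8.03e-15). Another non-coding RNA gene of stem cells, EMSLR, had 16.9 and 16 CPM in Endo, 46.1 and 40.3 in BMP4, and 59.9 and 61.0 in SMADi.

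Genes of lipid synthesis were mostly lowest in BMP4. Lower in BMP4 than in both others were 20 of 24 sterol genes and 8 of 11 fatty acid genes, against 8.37% of all tested genes. Of the 24 sterol genes 1 was higher and 22 were lower in BMP4 than in SMADi (median -1.13, or -1.12 with bounds), 4 higher and 8 lower in Endo than in SMADi (median -0.15), and 20 higher and 2 lower in Endo than in BMP4 (median 0.96). HMGCS1, which makes HMG-CoA for cholesterol, had 797 and 745 CPM in Endo, 196 and 165 in BMP4, and 861 and 900 in SMADi. INSIG1, a feedback protein of the same pathway, had 121 and 119 CPM in Endo, 37.4 and 36.7 in BMP4, and 109 and 109 in SMADi. For HMGCS1 and INSIG1 both BMP4 libraries were below the other 4, and Endo and SMADi were not called apart. Of 11 fatty acid genes 5 were higher and 0 lower in Endo than in SMADi, 0 higher and 8 lower in BMP4 than in SMADi, and 11 higher and 0 lower in Endo than in BMP4 (medians 0.17, -0.44 and 0.77). FASN, the fatty acid synthase, had 2390 and 2200 CPM in Endo, 1070 and 1100 in BMP4, and 1290 and 1360 in SMADi.

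Metallothioneins, small proteins that bind zinc and copper, set SMADi apart. Of 9 genes with a zinc exporter among them, 0 were higher and 8 lower in Endo than in SMADi (median -2.98), 0 higher and 9 lower in BMP4 than in SMADi (median -4.71, or -4.03 at the bounds), and 7 higher and 1 lower in Endo than in BMP4 (median 1.05, or 1.04). MT2A had 6.75 and 5.99 CPM in Endo, 1.88 and 2.24 in BMP4, and 67.7 and 66.4 in SMADi. MT1E had 2.75 and 2.01 CPM in Endo, 0.360 and 0.712 in BMP4, and 34.3 and 40.4 in SMADi. MT1X had 7.36 and 5.89 CPM in Endo, 10.0 and 10.2 in BMP4, and 42.8 and 38.3 in SMADi. SLC30A1, the zinc exporter that responds to the same metal sensor, had 6.68 and 7.25 CPM in Endo, 15.3 and 9.25 in BMP4, and 29.6 and 27.3 in SMADi. The metallothionein genes are near-identical copies in 1 cluster on chromosome 16, so reads could be split between them. Summed over the list the levels were 32.6 and 29.9 CPM in Endo, 31.6 and 26.8 in BMP4, and 258 and 254 in SMADi.

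The promoters of MT2A, MT1X and INSIG1 are shown because each gene belongs to a list with a well known promoter motif. They lie at chr16:56608334-56608633, chr16:56682220-56682519 and chr7:155297628-155297927, all on the plus strand (RefSeq, GRCh38.p14). Capitals mark the metal response element core in the metallothioneins, searched on both strands as TGCACNC or TGCGCNC, and in INSIG1 the sterol response element core, searched on both strands as CACNCCAC.
MT2A: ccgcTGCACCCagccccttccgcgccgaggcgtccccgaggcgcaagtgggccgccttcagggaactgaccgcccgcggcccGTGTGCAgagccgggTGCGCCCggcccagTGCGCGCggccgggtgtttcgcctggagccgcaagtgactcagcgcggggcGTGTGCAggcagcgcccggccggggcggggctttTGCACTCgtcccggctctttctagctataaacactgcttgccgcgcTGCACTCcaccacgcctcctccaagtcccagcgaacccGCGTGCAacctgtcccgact
MT1X: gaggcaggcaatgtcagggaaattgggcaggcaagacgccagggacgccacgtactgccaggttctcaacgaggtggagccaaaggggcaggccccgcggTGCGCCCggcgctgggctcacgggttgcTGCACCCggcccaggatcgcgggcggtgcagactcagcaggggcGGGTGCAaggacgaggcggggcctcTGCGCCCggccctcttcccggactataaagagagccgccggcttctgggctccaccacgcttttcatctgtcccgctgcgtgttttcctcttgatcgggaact
INSIG1: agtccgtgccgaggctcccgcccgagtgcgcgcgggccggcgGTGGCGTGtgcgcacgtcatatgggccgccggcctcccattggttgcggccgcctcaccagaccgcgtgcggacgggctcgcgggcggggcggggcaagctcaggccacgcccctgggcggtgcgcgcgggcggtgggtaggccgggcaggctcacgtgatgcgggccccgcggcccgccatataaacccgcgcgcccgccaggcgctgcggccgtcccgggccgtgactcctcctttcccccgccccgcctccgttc
MT2A held 8 matches and MT1X 4. The promoter table covered 3 of the 8 metallothionein genes, and all 3 promoters held at least 3 matches, as did 2.30% of all promoters. INSIG1 held 1 match, and 5 of 23 sterol promoters (21.7%) held the core, against 5.87% of all promoters. The promoters of the heat shock genes were searched for GAANNTTC or TTCNNGAA, which 7 of 10 (70.0%) held, against 13.5% of all promoters.

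**Figure D4:**
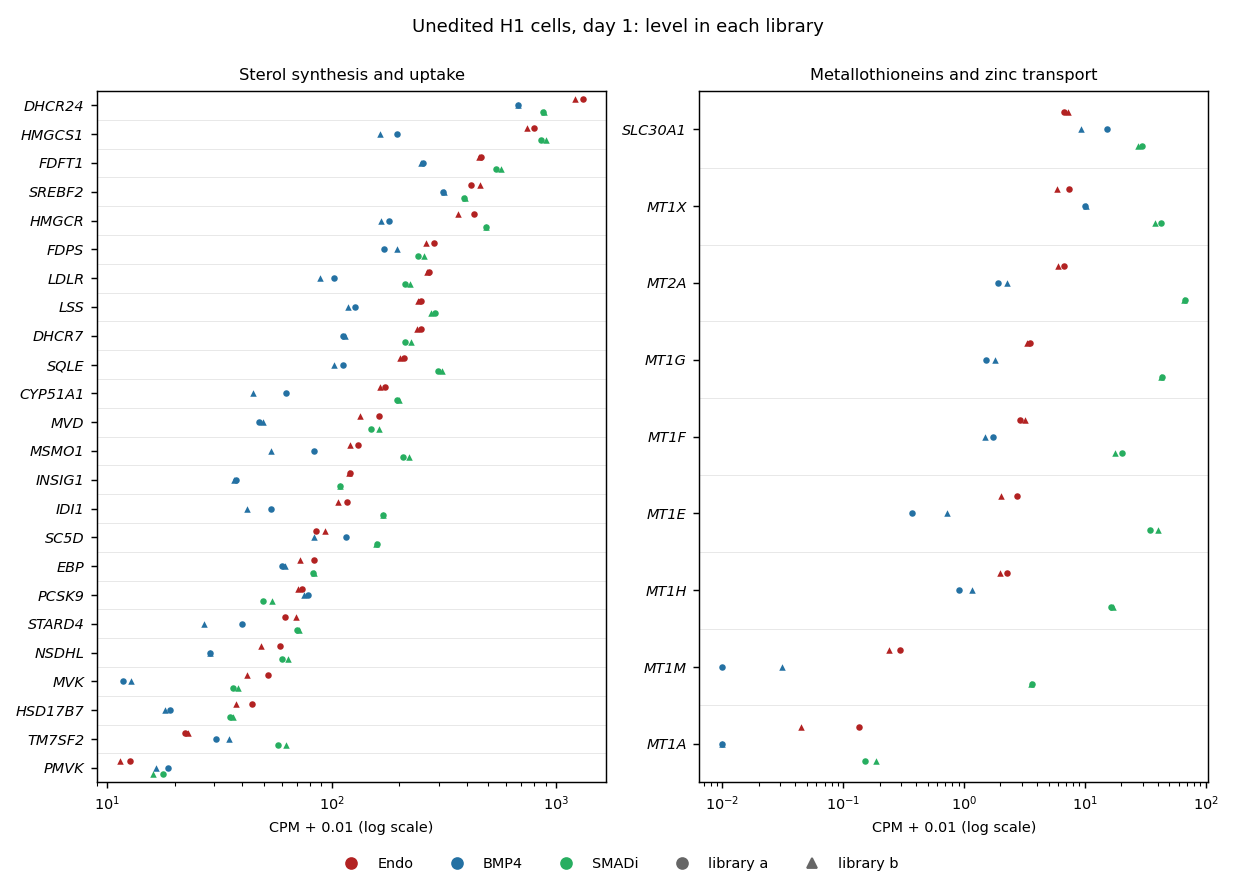
Level of the sterol genes (left) and of the metallothioneins with the zinc exporter SLC30A1 (right) in each day 1 library of unedited cells, as CPM + 0.01 on a log axis, with Endo in red, BMP4 in blue and SMADi in green, circles for library a and triangles for library b. HMGCS1 stands at 797 and 745 CPM in Endo, 196 and 165 in BMP4, and 861 and 900 in SMADi, and MT2A stands at 5.99 to 6.75 CPM in Endo, 1.88 to 2.24 in BMP4, and 66.4 to 67.7 in SMADi.

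Stress genes differed in both directions, and the hypoxia and integrated stress response genes were mostly higher in Endo than in SMADi, with medians of 0.87 and 0.77. HSPA8, the constitutive HSP70 chaperone, had 1930 and 1510 CPM in Endo, 1100 and 1060 in BMP4, and 3060 and 2880 in SMADi, and of 16 immediate early and heat shock genes 4 were higher and 6 lower in Endo than in SMADi, 4 higher and 7 lower in BMP4 than in SMADi, and 10 higher and 2 lower in Endo than in BMP4. IER3, an immediate early gene, was highest in Endo, with 349 and 299 CPM in Endo, 46.3 and 49.9 in BMP4, and 22.7 and 21.5 in SMADi. Of 13 hypoxia genes 9 were higher and 1 lower in Endo than in SMADi, 5 higher and 0 lower in BMP4 than in SMADi, and 6 higher and 1 lower in Endo than in BMP4. PDK1, which diverts pyruvate from mitochondria, had 169 and 235 CPM in Endo, 84.8 and 74.8 in BMP4, and 36.0 and 35.4 in SMADi. ADM (adrenomedullin) was the reverse, with 2.98 and 4.42 CPM in Endo, 94.2 and 95.8 in BMP4, and 88.7 and 79.3 in SMADi. Of 15 genes of the integrated stress response 10 were higher and 1 lower in Endo than in SMADi, 6 higher and 2 lower in BMP4 than in SMADi, and 7 higher and 2 lower in Endo than in BMP4. SLC7A5, an amino acid transporter of that response, had 1460 and 1440 CPM in Endo, 1280 and 1310 in BMP4, and 528 and 524 in SMADi. Of 23 p53 targets 3 were higher and 4 lower in Endo than in SMADi, 8 higher and 0 lower in BMP4 than in SMADi, and 0 higher and 8 lower in Endo than in BMP4. The p53 targets called in either direction were thus 7, 8 and 8 of 23. That is no larger a share than the 34.1%, 35.9% and 35.5% of all tested genes. Every p53 target called between BMP4 and another protocol was higher in BMP4. Among all tested genes 18.2% were higher in BMP4 than in SMADi, and 18.2% higher than in Endo. Of 25 cell cycle genes 3 were higher and 9 lower in Endo than in SMADi, 1 higher and 12 lower in BMP4 than in SMADi, and 14 higher and 1 lower in Endo than in BMP4 (medians -0.19, -0.24 and 0.28). Of 22 glycolysis genes 5 were higher and 5 lower in Endo than in SMADi. In BMP4 5 were higher and 4 lower than in SMADi, and in Endo 5 were higher and 4 lower than in BMP4. For every list here, the shares over all tested genes were 34.1%, 35.9% and 35.5% in either direction. Each single direction held 16.6% to 18.2%.

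Among markers of other cell types the endothelial and blood genes and the HOX genes were low in all protocols, and the fibroblast matrix genes were not. The endothelial and blood genes, 14 tested of 15, summed to 38.7 and 38.4 CPM in Endo, 42.0 and 35.3 in BMP4, and 36.5 and 37.1 in SMADi. Of these 2 were higher and 2 lower in Endo than in SMADi, 1 higher and 1 lower in BMP4 than in SMADi, and 2 higher and 3 lower in Endo than in BMP4, no larger a share than over all tested genes for Endo against SMADi (34.1%) and BMP4 against SMADi (35.9%) and about that share for Endo against BMP4 (35.5%). PTPRC and GATA1 were at or below 0.101 CPM in all 6 libraries. The neural crest and placode list of 16 genes summed to 140 and 145 CPM in Endo, 256 and 225 in BMP4, and 255 and 251 in SMADi. Of these 3 were higher and 6 lower in Endo than in SMADi, 7 higher and 6 lower in BMP4 than in SMADi, and 2 higher and 10 lower in Endo than in BMP4. The placode factor FOXI3 had 2.32 and 2.11 CPM in Endo, 52.7 and 46.5 in BMP4, and 22.8 and 19.9 in SMADi. Of 12 tested fibroblast matrix genes of 13, 4 were higher and 2 lower in Endo than in SMADi, 6 higher and 2 lower in BMP4 than in SMADi, and 4 higher and 5 lower in Endo than in BMP4, with DCN and LUM at or below 0.0568 CPM. That list summed to 2510 and 2400 CPM in Endo, 1430 and 1380 in BMP4, and 1230 and 1180 in SMADi, so both Endo libraries were highest. The HOX genes, 15 tested of 22, summed to 4.69 and 3.77 CPM in Endo, 5.15 and 5.55 in BMP4, and 1.37 and 0.991 in SMADi. Of these 6 were higher and 0 lower in Endo than in SMADi. In BMP4 4 were higher and 0 lower than in SMADi, and in Endo 4 were higher and 2 lower than in BMP4. For the neural crest, fibroblast and HOX lists too, 34.1%, 35.9% and 35.5% of all tested genes were called in either direction. The HOX share for BMP4 against SMADi was below that of all tested genes.

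The same differences were counted in the edited cells. LNCPRESS1 itself averaged 1.76 ± 0.166 CPM in KO, 1.73 ± 0.155 in ΔATG and 1.35 ± 0.427 in WT cells of Endo at day 1 (SD, n = 2 each). In BMP4 it averaged 12.4 ± 1.93 CPM in KO, 16.6 ± 1.06 in ΔATG and 22.3 ± 1.33 in WT cells, and in SMADi 24.4 ± 0.183 CPM in KO, 39.7 ± 1.36 in ΔATG and 53.7 ± 0.959 in WT cells (SD, n = 2 each). Its transcript was thus still counted in the KO libraries. In the KO cells at day 1 74.3% of the genes called between Endo and SMADi in unedited cells were called in the same direction and 0.318% in the opposite one, where 34.2% of all genes were called. For BMP4 against SMADi the shares were 74.2% and 1.01% (38.8% of all genes called), and for Endo against BMP4 75.3% and 0.338% (37.2% called). In the ΔATG cells the same direction held for 68% of the genes between Endo and SMADi, 71% between BMP4 and SMADi and 65% between Endo and BMP4, with 36%, 36.3% and 32.9% of all genes called. The difference between edited and unedited cells was itself called for 1.47% of all genes between Endo and SMADi in KO cells, 3.41% between BMP4 and SMADi and 1.08% between Endo and BMP4. In ΔATG cells these shares were 5.51%, 3.3% and 3.57%.

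The sets of genes that set a protocol apart were found again at similar shares in KO cells. Of the genes higher in Endo 69.5% were so again, where 7.75% of all genes were, and of those lower in Endo 69.4% (8.62% of all). For BMP4 the shares were 68% of the higher genes (9.43% of all) and 67.8% of the lower ones (9.25%). For SMADi they were 68.8% of the higher genes (8.53% of all) and 66.5% of the lower ones (9.02%). In ΔATG cells the shares were 61.1% higher and 57.8% lower in Endo (7.7% and 8.44% of all genes). They were 59.4% and 52.5% in BMP4 (8.11% and 6.67% of all) and 64% and 65% in SMADi (9.16% and 9.68% of all).

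**Figure D5:**
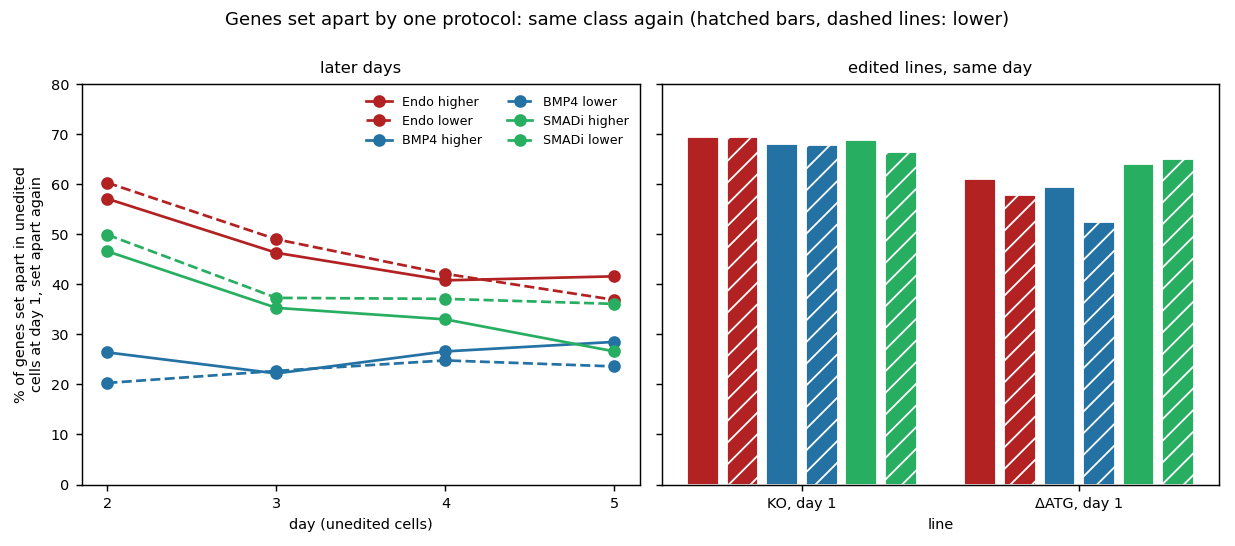
Share of the genes that set 1 protocol apart in unedited cells at day 1 that set the same protocol apart in the same direction again, in percent, on days 2 to 5 of unedited cells (left, lines) and at day 1 of KO and ΔATG cells (right, bars), with Endo in red, BMP4 in blue and SMADi in green, and dashed lines or hatched bars for the genes lower in that protocol. The shares for Endo are 57.1% and 60.3% on day 2 and 41.6% and 36.9% on day 5, those for BMP4 stay between 20.3% and 28.5%, and the KO bars lie between 66.5% and 69.5%.

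Across later days of unedited cells the day 1 pattern held in part. Genes higher in Endo than in both others at day 1 were so again for 57.1% on day 2 and 41.6% on day 5, where 16.3% and 18.7% of all genes were. For the genes lower in Endo these shares were 60.3% and 36.9% (16.8% and 18.9% of all). For BMP4 they were 26.4% and 28.5% of the higher genes (5.33% and 13% of all), and 20.3% and 23.6% of the lower genes (3.96% and 11.4% of all). For SMADi they were 46.6% and 26.6% of the higher genes (9.79% and 14.8% of all), and 49.9% and 36.1% of the lower genes (10.4% and 15.2% of all). Other day 1 calls turned round. Of the genes called at day 1 between Endo and SMADi 8.49% were called in the opposite direction on day 2 and 26.9% on day 5, between BMP4 and SMADi 4.78% and 23%, and between Endo and BMP4 12.4% and 25.9%. CER1 kept its order, with 1770, 7920, 7280, 8800 and 11700 CPM on average on days 1 to 5 in Endo, while BMP4 peaked at 251 CPM on day 2 and SMADi stayed at or below 0.109 CPM. TBXT did not: it averaged 352 ± 26.5 CPM in Endo on day 1 and 7.81 ± 0.654 CPM on day 2, against 95.8 ± 5.27 and 151 ± 6.48 CPM on those days in BMP4 (SD, n = 2 each). SOX17 averaged 0.991 ± 0.106 CPM in Endo on day 1 and 546 ± 28.7 CPM on day 2, and CXCR4 averaged 0.240 ± 0.142 and 140 ± 3.20 CPM (SD, n = 2 each). Both endoderm markers were thus high in Endo on day 2. PAX6 averaged 0.0449, 0.261, 10.2, 36.2 and 64.6 CPM on days 1 to 5 in Endo and 0.0504, 0.0429, 0.362, 26.7 and 150.0 CPM in SMADi, while in BMP4 it stayed at or below 0.518 CPM. PAX6 was higher in Endo than in SMADi on day 3, by 4.83 ± 0.34 (edgeR adjusted p = 1.35e-18), not called on day 4 (0.44 ± 0.22, edgeR adjusted p = 0.0791) and lower in Endo on day 5 (-1.22 ± 0.21, edgeR adjusted p = 1.99e-06). SOX1 averaged at most 0.0296 CPM in Endo and 0.104 CPM in BMP4 on any of these days, and 0.141, 5.40, 31.8, 46.1 and 46.2 CPM on days 1 to 5 in SMADi. LHX5 in SMADi averaged 11.5 ± 0.814 CPM on day 1 and 460 ± 37.5 CPM on day 5 (SD, n = 2), whereas FOXJ1 and GBX2 were at their highest in SMADi on day 1, at 51.2 and 87.7 CPM, and at 2.20 and 1.75 CPM on day 5. MT2A in SMADi was also highest on day 1, at 67.1 CPM, and at 3.76 CPM on day 5.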

How the data were processed

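RNA of H1 cells was made into stranded polyA libraries from 100 ng, per the labels' protocols, and the submitters' processing notes name GRCh38. The authors deposited estimated counts for 62703 genes, which the file's name calls length-scaled. The sources used here name no aligner, quantifier or gene annotation, nor whether counting used strand. The estimated counts were rounded to whole numbers. edgeR 4.0.16 in R 4.3.3 was fitted to the 96 differentiation libraries in 48 groups of 2, with 48 residual degrees of freedom, TMM scaling, edgeR's filter on low counts and the quasi-likelihood test. A gene could pass that filter through any of the 48 groups. Of these genes 25821 were tested, and p-values were adjusted over all of them by the Benjamini-Hochberg method. CPM is TMM-scaled, with scaling factors of 0.9391 to 0.983 for the 6 libraries. Their 48956775 to 58308200 counts set the precision of each value. Where a group had 0 counts, folds are bounds from a floor of 3 counts per library, and where it had 1 to 3 counts, ratios have exact 95% intervals for counting error only. SEs are the absolute log2 fold change divided by the square root of F.

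Named genes were the 8 higher and 4 lower genes with the largest smaller difference for each protocol, among genes of at least 5 CPM in the highest group, and members of gene lists, with LNCPRESS1 and EMSLR. The members, lists and tests were chosen with earlier results of these data known. Libraries a and b of a group differed by more than counting noise, with chi-square per degree of freedom of 13.8 in Endo, 37.5 in BMP4 and 6.52 in SMADi. The script was tested on simulated data. Alternatives used DESeq2 1.42.0 and limma 3.58.1 voom. Promoters were searched in Python 3.11.15. Gene positions come from GENCODE 29. Some list members are counted but not reported here by name.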

Additional observations from a re-analysis of the deposited data

Results flagged for a closer look

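The differences between protocols at day 1 were set against those in the edited cells, gene by gene, as the edited log2 fold change minus the unedited one. These genes were named by rank in unedited cells. They stood out because this difference passed edgeR's quasi-likelihood interaction test, with a Benjamini-Hochberg adjusted p under 0.05 over all tested genes. The rank chose them for large differences in unedited cells, and the same values enter this difference. A smaller difference in the edited cells is therefore favoured by the choice. The KO and ΔATG tests share the unedited libraries, so calls in both lines are not independent.

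In KO cells the values of the difference are given beside each gene. For Endo against SMADi, this difference was called for 380 of all tested genes (1.47%), and among the named genes for PCAT14 (3.78), LMX1B (2.27) and VGF (-1.18). For BMP4 against SMADi, this difference was called for 880 of all tested genes (3.41%), and among the named genes for PAX5 (4.27), ZNF528 (4.24), AMER2 (3.33), LMX1B (2.93), PCAT14 (2.65), HES3 (1.68), SOX3 (-0.99) and VGF (-1.19). For Endo against BMP4, this difference was called for 280 of all tested genes (1.08%), and among the named genes for LRP2 (4.15), CER1 (1.66), PCAT14 (1.14), TBXT (1.08), HES3 (-2.55), PAX5 (-3.10) and ZNF528 (-3.33). PCAT14 was 6.79 higher in Endo than in SMADi in KO cells, against 3.01 in unedited cells. PAX5 differed by 0.44 between BMP4 and SMADi in KO cells, against -3.83 in unedited cells.

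In ΔATG cells the values are given in the same way. For Endo against SMADi, this difference was called for 1422 of all tested genes (5.51%), and among the named genes for LRP2 (3.40), JAKMIP2-AS1 (3.31), PCAT14 (2.31), FAM110C (2.19), the BMP4 gene (-1.17), VGF (-1.17), GBX2 (-1.76), MT1E (-2.44) and LHX5 (-2.62). For BMP4 against SMADi, this difference was called for 851 of all tested genes (3.30%), and among the named genes for PAX5 (3.91), LMX1B (3.08), AMER2 (2.98), PCAT14 (2.83), HES3 (2.21), FAM20A (0.88), SOX3 (-0.89), VGF (-1.24) and LRP2 (-3.33). For Endo against BMP4, this difference was called for 922 of all tested genes (3.57%), and among the named genes for LRP2 (6.73), JAKMIP2-AS1 (3.30), FAM110C (3.17), SOX3 (1.57), the BMP4 gene (-1.91), HPGD (-1.92), LMX1B (-2.43), GBX2 (-2.57), PAX5 (-2.81) and MESP1 (-2.87). LRP2 differed by 2.07 between Endo and BMP4 in ΔATG cells, against -4.66 in unedited cells.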

How the results depend on the processing

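The counts of called genes were recomputed with size factors from DESeq2, without the low-count filter, with only the 6 day 1 libraries, a block for the library letter, limma voom, the DESeq2 test and without each library in turn. They ranged from 6718 to 9825 genes between Endo and SMADi, 6746 to 9954 between BMP4 and SMADi, 7204 to 10016 between Endo and BMP4, and 10984 to 14133 for any difference. Only the number of genes lower in BMP4 than in both others moved by more than 1.5 times, with 1412 without BMP4 library b against 2161 with all libraries.

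Without 1 library at a time, 6718 to 8819 genes were called between Endo and SMADi, 6746 to 9266 between BMP4 and SMADi, 7204 to 9140 between Endo and BMP4, and 11632 to 12506 for any difference. The genes set apart were 1530 to 1692 higher and 1858 to 2226 lower in Endo, 1681 to 1866 higher and 1412 to 1927 lower in BMP4, and 1389 to 1897 higher and 1570 to 1920 lower in SMADi. A lone library in a group is then assumed to vary like the other groups.

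Of 1030 values of list members and named genes none changed sign with a call. Leaving out 1 library ended 73 to 100 calls, the 6 libraries alone 57, no filter 30 and voom 25. The letters a and b did not pair the libraries: the correlation of b minus a between protocols was -0.102 for Endo and BMP4, 0.072 for Endo and SMADi, and 0.015 for BMP4 and SMADi. The replicate block over all libraries gave 9825, 9954 and 10016 calls, and within the 6 libraries 7178, 7610 and 7660. In simulated data for Endo against SMADi with 25821 genes, 15% of changes of 0.5 and 69% of changes of 1 on the log2 scale were called. Small differences could therefore be missed. The simulation changed 100 genes at each size and gave each gene the spread typical of its level, so its shares need not hold here. In the data, the genes lower in BMP4 than in both others had a median smaller difference of 0.49.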
